A study of Saccharomyces cerevisiae with 15 samples.

Results

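Protein-folding genes of budding yeast, *Saccharomyces cerevisiae*, were followed on 15 DNA microarrays that set treated cells against growing cells. The genes were those whose symbol in the probe annotation was on a list of 46 cytosolic and mitochondrial chaperones, co-chaperones and the regulator HSF1. Of these, 42 had a probe under their symbol among the 6249 genes or probes measured, and 40 had a value on all 15 arrays. HSP31, CUR1, FES1 and APJ1 had no probe under their symbol and were not analysed here. HSP82, an Hsp90, had no value on the array of both strains in mid-log growth. CNS1, an Hsp90 co-chaperone, had none on the rapamycin, nitrogen and KCl arrays, so 41 genes entered each test.

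All cells were MATa cells of the W303 background. The wild-type strain was ACY044 and the mutant was ACY509, which lacks SNF1, the gene of the yeast AMP-activated kinase. Another mutant strain is not analysed here. Treated cells were sampled after 20 minutes, and their polyadenylated RNA was set against that of untreated mid-log cells of the same strain. Wild-type cells were given 200 nM rapamycin (an inhibitor of the growth kinase complex TORC1), starved for nitrogen, starved for amino acids, moved to 0.1% glucose, given 0.375 M KCl, heated to 42 °C, or given 0.4 mM hydrogen peroxide. A further 3 wild-type arrays combined nitrogen with glucose starvation, glucose starvation with 200 nM rapamycin, and nitrogen starvation with 0.375 M KCl. The titles call the glucose starvation of the first pair of combinations total carbon starvation, and their glucose concentration was not given in the sources used here. Cells lacking SNF1 were starved for nitrogen, given 0.375 M KCl, or moved to 0.1% or 0.02% glucose, and 1 array set snf1 over wild type in mid-log growth.

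Each condition had 1 array and no replicate, so single-array values carry no error, and precision is limited by how many arrays there were. A value is taken as a log2 ratio of treated over mid-log cells, where 1 is a doubling. The log base was not given in the sources used here. Ratios say nothing of how abundant an RNA was, and fewer cells making an RNA cannot be told apart from less RNA in each cell. For the same reason the mating type could not be checked from the levels of its marker genes. The peroxide array had the opposite dye order and was turned to the same direction. Each treatment was measured in a single dye order, so dye and treatment cannot be told apart on any array. On 6 arrays exact zeros, 672 to 1205 of them per array, were taken as no value. It is not known whether arrays shared a mid-log RNA preparation, which would enter every ratio made with it.

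Chaperones bind unfolded proteins and help them fold, refold or reach their destination. Hsp70 proteins work with J-proteins, which bring them substrates, and with exchange factors, which release bound nucleotide. Hsp90 finishes the folding of kinases and other clients with a set of co-chaperones. A separate Hsp70 system sits on the ribosome and meets proteins as they emerge, and the CCT ring folds actin and tubulin. Mitochondria have their own Hsp70, a chaperonin made of Hsp60 and Hsp10, and a disaggregase. The heat shock factor Hsf1 drives many cytosolic chaperone genes, while the transcription factors Msn2 and Msn4 drive the general stress genes. TORC1 keeps ribosome-building genes active in growing cells.

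The heat-inducible and the ribosome-bound chaperones moved apart on the 42 °C array. The chaperone genes and their role groups were chosen with earlier results of these data known, so their counts are descriptions. On this array 23 of the 42 chaperone genes were at least 2-fold higher than in mid-log cells. That is 54.8%, against 16% of all genes with a value on the array. A further 10 were at least 2-fold lower, or 23.8%, against 18.4% of all genes. The genes at least 2-fold higher were all 5 stress-specific genes, 8 of the 9 cytosolic Hsp70 genes, 5 of the 9 Hsp90 genes and 5 of the 6 mitochondrial genes. No ribosome-bound or CCT gene was at least 2-fold higher. Those lower were 3 of the 4 ribosome-bound genes, 6 of the 8 CCT genes and the mitochondrial MGE1. Of the 41 genes measured on the 7 wild-type arrays of single treatments, 26 were highest on the heat array, against 21.3% of all genes, and 8 were lowest there, against 23.1%. On all 7 arrays 7 genes were above mid-log, against 17.3% of all genes, and 11 were below it, against 22.2%.

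**Figure D1:**
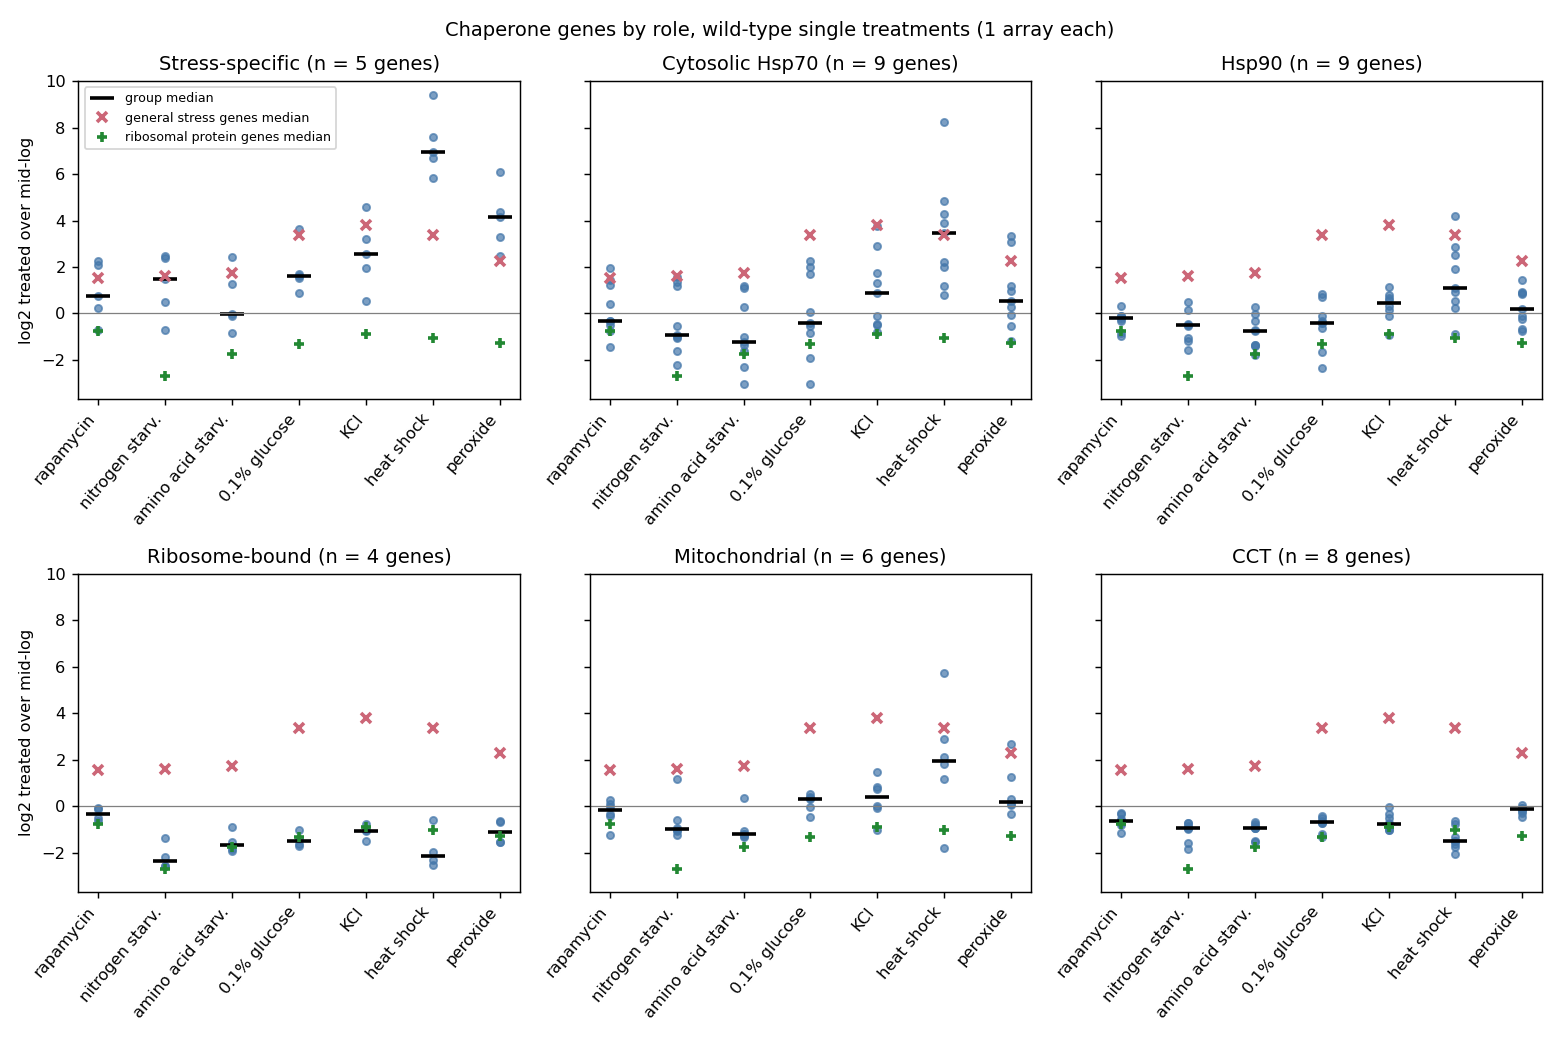
The log2 ratio of treated over mid-log cells (vertical axis) is plotted for each chaperone gene (blue points) on the 7 wild-type arrays of single treatments (horizontal axis), in 6 panels by role. Black bars are the group medians, red crosses the median of the general stress genes and green plus signs the median of the cytosolic ribosomal protein genes. The stress-specific median is 6.94 on the heat array, the ribosome-bound median there is −2.13 and the CCT median −1.52.

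All 5 stress-specific genes were highest at 42 °C, and they differed from each other in starvation. HSP30 encodes a plasma membrane protein that restrains the proton pump Pma1. Its ratio was 2.25 with rapamycin, 2.46 without nitrogen, 2.43 without amino acids, 3.64 in 0.1% glucose, 2.57 with KCl, 9.39 at 42 °C and 6.10 with peroxide. It was therefore at least 2-fold higher on each of the 7 arrays, and its heat value corresponds to 671-fold. HSP26, a small heat shock protein gene, was 2.10 with rapamycin, −0.70 without nitrogen, −0.85 without amino acids, 1.63 in 0.1% glucose, 4.57 with KCl, 7.62 at 42 °C and 4.35 with peroxide. The nitrogen and amino acid arrays were thus the ones on which HSP26 was below mid-log. HSP104, the cytosolic disaggregase, had the lowest heat value of the 5 genes at 5.85. On the other arrays it was 0.24 with rapamycin, 0.51 without nitrogen, −0.09 without amino acids, 1.52 in 0.1% glucose, 1.97 with KCl and 2.48 with peroxide. HSP42, the second small heat shock protein gene, was above 0 on all 7 arrays, from 0.75 with rapamycin to 6.70 at 42 °C. BTN2, whose product gathers misfolded proteins into aggregates, ranged from −0.72 with rapamycin to 6.94 at 42 °C, with 2.39 without nitrogen and −0.01 without amino acids.

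Among the cytosolic Hsp70 genes, the members known as stress-induced and those known as constitutive separated on almost every array. SSA4, a stress-induced Hsp70, was 1.96 with rapamycin, 1.20 without nitrogen, 0.29 without amino acids, 2.00 in 0.1% glucose, 3.78 with KCl, 8.25 at 42 °C and 3.35 with peroxide. SSA2, a constitutive Hsp70, was −0.32 with rapamycin, −2.20 without nitrogen, −3.06 without amino acids, −3.06 in 0.1% glucose, −0.49 with KCl, 2.20 at 42 °C and −1.20 with peroxide. SSA4 was thus higher than SSA2 on all 7 arrays, by 2.28 log2 units with rapamycin up to 6.05 at 42 °C, and heat was the treatment that placed SSA2 above mid-log. SSA3, the other stress-induced Hsp70, was 1.22 with rapamycin, 1.57 without nitrogen, 1.17 without amino acids, 1.71 in 0.1% glucose, 1.74 with KCl, 4.85 at 42 °C and 0.54 with peroxide. SSA1 was 0.40 with rapamycin, −1.06 without nitrogen, −1.60 without amino acids, 0.07 in 0.1% glucose, 1.32 with KCl, 3.46 at 42 °C and 1.17 with peroxide. SSA3 exceeded SSA1 on 6 arrays, and on the peroxide array SSA1 was higher by 0.63.

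Pairs of Hsp70 partner genes also differed from each other. SSE1 and SSE2 are Hsp110 exchange factors. SSE2 was above 0 on all 7 arrays, from 1.08 without amino acids to 4.27 at 42 °C, while SSE1 was below 0 on all but the heat array, where it was 1.19. The gap between them ran from 1.90 with rapamycin to 3.38 with KCl. Of the J-protein genes, SIS1 exceeded YDJ1 on all 7 arrays, by 0.68 with rapamycin to 1.91 at 42 °C. YDJ1 ranged from −2.29 without amino acids to 1.98 at 42 °C, and SIS1 from −1.23 without amino acids to 3.89 at 42 °C. SGT2, which passes tail-anchored proteins towards the membrane, had the lowest heat value of the 9 genes at 0.81. On the other arrays SGT2 was −0.33 with rapamycin, −0.91 without nitrogen, −1.02 without amino acids, −0.54 in 0.1% glucose, −0.11 with KCl and 0.27 with peroxide.

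The Hsp90 genes had smaller ratios. HSP82, the heat-inducible Hsp90, was −0.97 with rapamycin, −0.50 without nitrogen, −1.79 without amino acids, −0.41 in 0.1% glucose, 1.15 with KCl, 4.19 at 42 °C and 1.43 with peroxide. HSC82, the constitutive Hsp90, was −0.33 with rapamycin, −1.19 without nitrogen, −1.35 without amino acids, −0.39 in 0.1% glucose, 0.17 with KCl, 1.09 at 42 °C and −0.69 with peroxide. HSP82 exceeded HSC82 by 3.10 at 42 °C, 2.12 with peroxide, 0.98 with KCl and 0.69 without nitrogen. The difference was −0.64 with rapamycin, −0.44 without amino acids and −0.02 in 0.1% glucose. HSP82 and HSC82 are close in sequence, as are the SSA genes, and SSE1 and SSE2. A probe of any of these may have read part of a partner's RNA, so the gaps between them are uncertain.

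**Figure D2:**
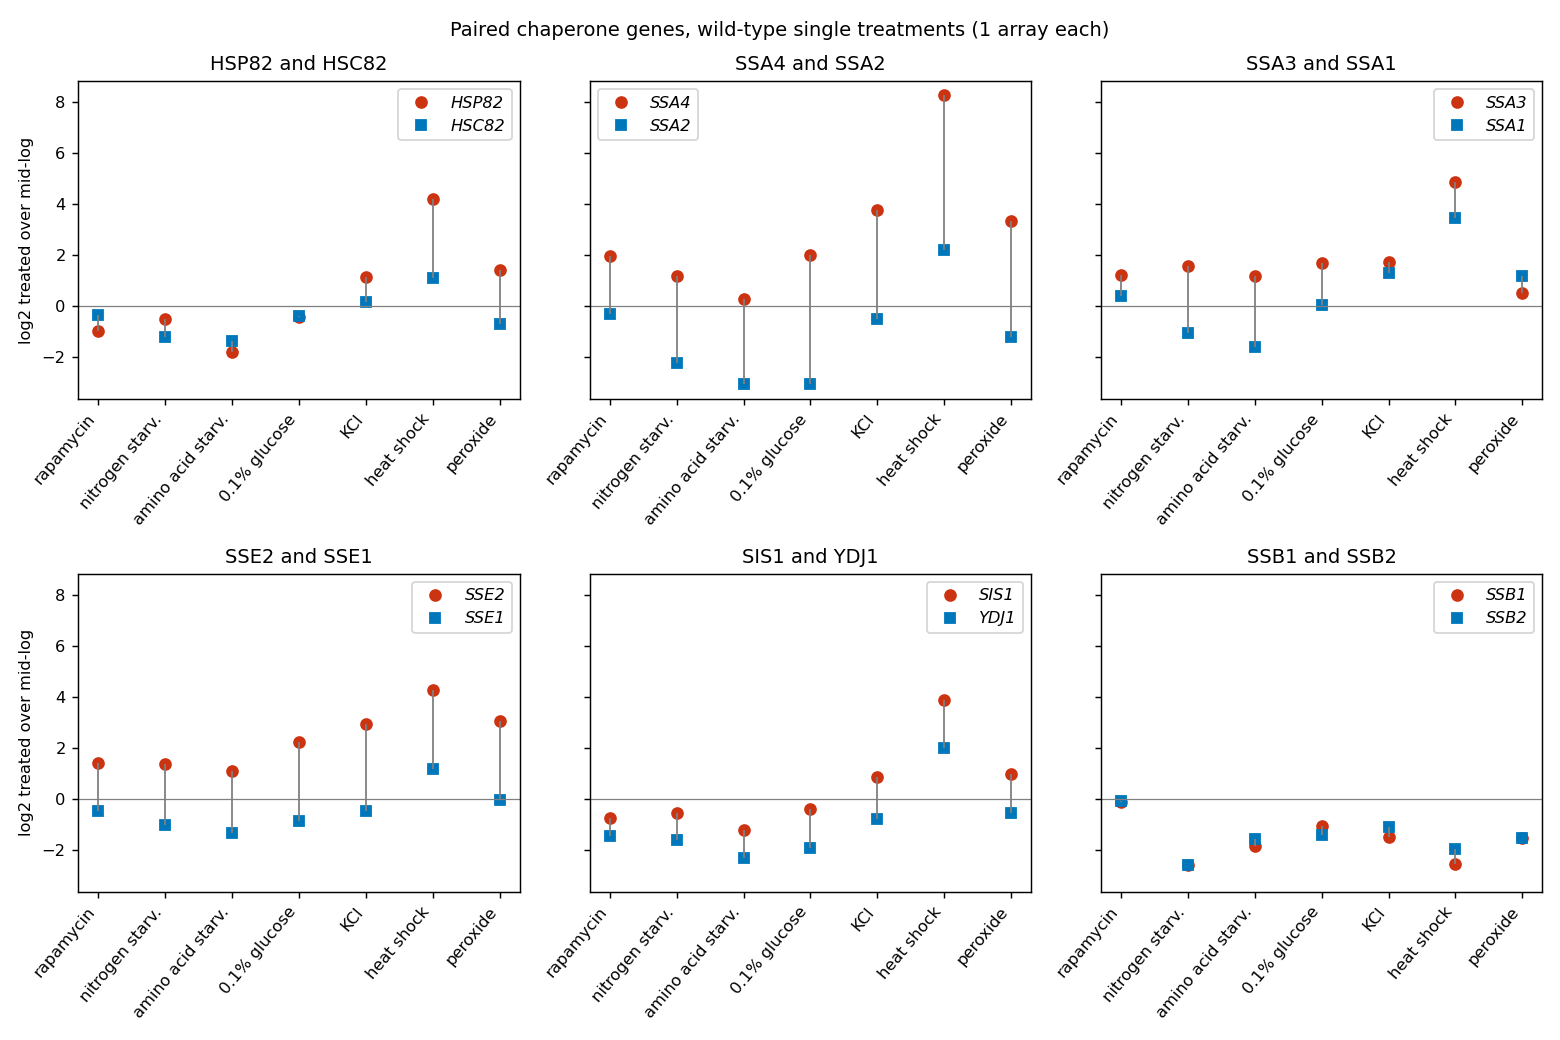
The log2 ratio of treated over mid-log cells (vertical axis) is plotted for 6 pairs of related chaperone genes on the 7 wild-type arrays of single treatments (horizontal axis), with grey lines joining the members of a pair. SSA4 and SSE2 lie above SSA2 and SSE1 on every array, HSP82 lies above HSC82 by 3.10 at 42 °C, and SSB1 and SSB2 differ by at most 0.58.

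The Hsp90 co-chaperones followed with a range of responses. STI1, which bridges Hsp70 and Hsp90, was −0.24 with rapamycin, −1.05 without nitrogen, −1.34 without amino acids, −0.61 in 0.1% glucose, 0.57 with KCl, 2.86 at 42 °C and 0.93 with peroxide. STI1 was thus below mid-log in every starvation and above it in every stress, as were HSP82 and the cyclophilin gene CPR6. CPR6 ran from −0.76 without amino acids to 2.52 at 42 °C. The Hsp90 activator genes AHA1 and HCH1 were at 1.92 and 0.94 at 42 °C, and AHA1 exceeded HCH1 on all arrays but that of peroxide, where the difference was −0.13. SBA1, the yeast p23, lay between 0.17 and 0.85 on the 7 arrays. CDC37, which brings kinases to Hsp90, lay between −0.13 and 0.86. CNS1 had the lowest heat value of the group at −0.90, with −0.31 without amino acids, −2.36 in 0.1% glucose and −0.76 with peroxide.

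The ribosome-bound chaperones were below mid-log on all 7 arrays. SSB1, a ribosome-bound Hsp70, was −0.13 with rapamycin, −2.59 without nitrogen, −1.83 without amino acids, −1.04 in 0.1% glucose, −1.48 with KCl, −2.54 at 42 °C and −1.53 with peroxide. SSB2, its near-identical copy, was −0.07 with rapamycin, −2.58 without nitrogen, −1.55 without amino acids, −1.41 in 0.1% glucose, −1.08 with KCl, −1.96 at 42 °C and −1.54 with peroxide. The copies stayed within 0.58 of each other, and their probes may read both RNAs. SSZ1 and ZUO1 encode the ribosome-associated complex that serves the Ssb proteins. SSZ1 was −0.65 with rapamycin, −2.18 without nitrogen, −1.94 without amino acids, −1.63 in 0.1% glucose, −1.03 with KCl, −0.61 at 42 °C and −0.62 with peroxide. ZUO1 was −2.31 at 42 °C and −0.51 with rapamycin, so at 42 °C the partners of this complex differed from each other more than the Ssb copies did. The group medians lay near those of 130 cytosolic ribosomal protein genes without nitrogen, at −2.38 and −2.71, and without amino acids, at −1.69 and −1.74. They were also near in 0.1% glucose, at −1.52 and −1.31, with KCl, at −1.06 and −0.89, and with peroxide, at −1.11 and −1.27. With rapamycin they were −0.32 and −0.76. At 42 °C the ribosome-bound median was −2.13 and the ribosomal protein median −1.04.

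Of the mitochondrial genes, the disaggregase HSP78 stood apart. HSP78 was 0.11 with rapamycin, 1.16 without nitrogen, 0.35 without amino acids, 0.52 in 0.1% glucose, 1.48 with KCl, 5.75 at 42 °C and 2.67 with peroxide, above 0 throughout. It stayed within 1.00 of its cytosolic relative HSP104 on each of the 7 arrays. MDJ1, the mitochondrial J-protein gene, was −0.43 with rapamycin, −0.60 without nitrogen, −1.33 without amino acids, −0.45 in 0.1% glucose, 0.82 with KCl, 2.88 at 42 °C and 1.25 with peroxide. MGE1, the exchange factor of the same Hsp70, was −1.24 with rapamycin, −1.23 without nitrogen, −1.08 without amino acids, −0.05 in 0.1% glucose, −1.01 with KCl, −1.81 at 42 °C and 0.30 with peroxide. J-protein and exchange factor genes of this machine thus lay on opposite sides of mid-log at 42 °C. The chaperonin genes HSP60 and HSP10 were at 1.82 and 2.11 at 42 °C, and at −1.07 and −0.96 without nitrogen. SSC1, the mitochondrial Hsp70, was at 1.15 at 42 °C and −1.02 without nitrogen.

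The CCT genes shared a sign on almost every array. All 8 were below mid-log on 6 of the 7 arrays, and with peroxide 7 of the 8 were. CCT3 was the highest of them at 42 °C, with −0.55 with rapamycin, −0.73 without nitrogen, −0.94 without amino acids, −0.52 in 0.1% glucose, −0.72 with KCl, −0.64 at 42 °C and −0.14 with peroxide. CCT4 was next, with −0.34 with rapamycin, −0.87 without nitrogen, −0.79 without amino acids, −0.68 in 0.1% glucose, −0.34 with KCl, −0.78 at 42 °C and −0.11 with peroxide. The lowest at 42 °C was CCT5, with −0.82 with rapamycin, −1.60 without nitrogen, −1.52 without amino acids, −1.33 in 0.1% glucose, −0.82 with KCl, −2.04 at 42 °C and −0.31 with peroxide. The other subunit genes at 42 °C were TCP1 at −1.34, CCT2 at −1.51, CCT6 at −1.52, CCT7 at −1.62 and CCT8 at −1.78. Each of the 8 genes encodes a different subunit of the same complex, and their heat ratios lay between −2.04 and −0.64. HSF1 itself lay between −0.52 at 42 °C and 0.82 with KCl, and was 0.57 with rapamycin, 0.17 without nitrogen, 0.23 without amino acids, −0.10 in 0.1% glucose and 0.59 with peroxide.

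**Figure D3:**
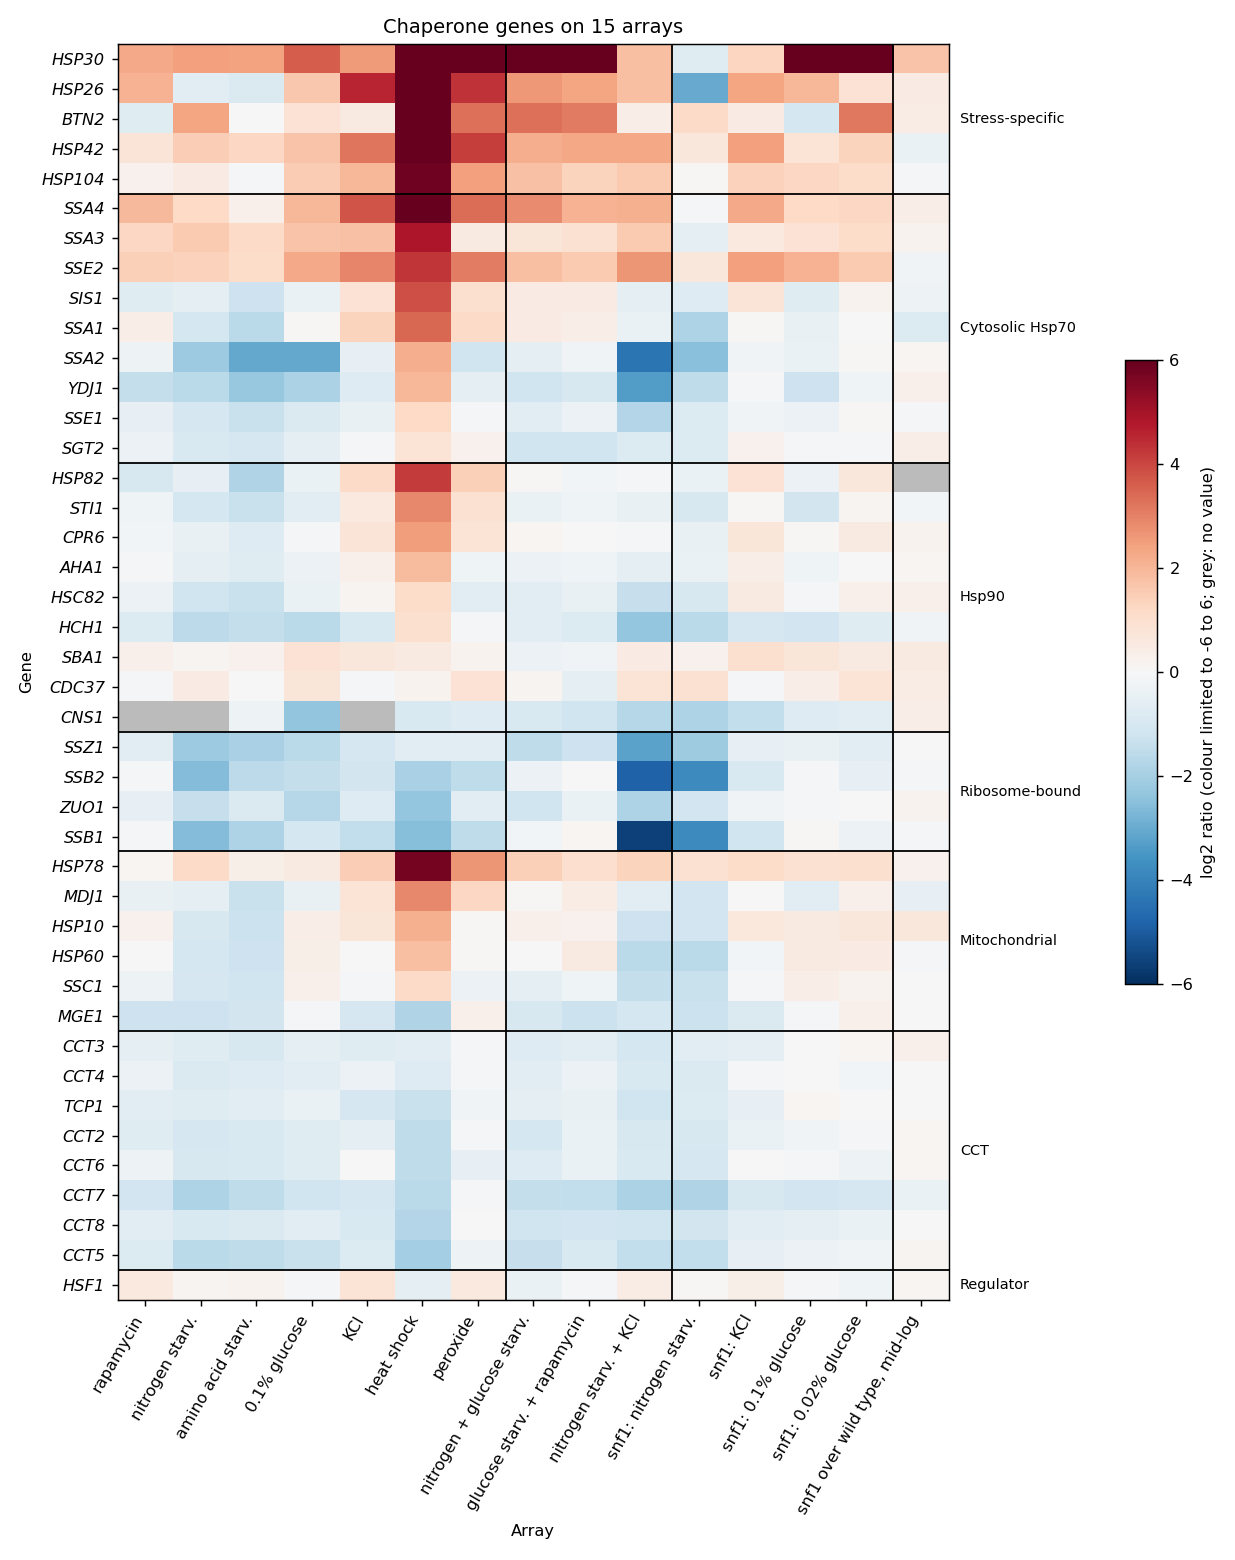
Colours give the log2 ratio of each of the 42 chaperone genes (rows, by role) on each of the 15 arrays (columns), with the colour scale capped at both ends and grey where there is no value. The heat array is the column with the most strongly raised genes, up to 9.39 for HSP30, and the lowest value is that of SSB1 under nitrogen starvation with KCl, at −5.58.

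On the other single-treatment arrays the counts of chaperone genes were nearer to those of all genes, with exceptions. These were the lower genes of the nitrogen and amino acid arrays and the higher genes of the KCl and peroxide arrays. Without nitrogen 17 of 41 were at least 2-fold lower, against 14.6% of all genes, and 7 were higher, against 14.7%. Without amino acids 20 of 42 were lower, against 14.7%, and 4 were higher, against 13.4%. With rapamycin 3 of 41 were lower, against 11.5%, and 5 were higher, against 11.1%. Rapamycin therefore left far fewer chaperone genes at least 2-fold lower than did removal of nitrogen, a difference between single arrays that was not tested. In 0.1% glucose 10 of 42 were lower, against 19.1%, and 7 were higher, against 14.7%. With KCl 6 of 41 were lower, against 15.7%, and 10 were higher, or 24.4%, against 13.2%. With peroxide 3 of 42 were lower, SSA2, SSB1 and SSB2, against 12.3%, and 11 were higher, or 26.2%, against 9.97%.

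To ask which genes were higher or lower on average over the 7 single treatments, the mean ratio was tested against 0 with limma, where the spread is that between treatments. By limma with Benjamini-Hochberg adjustment over 4862 genes, 9 of the 41 chaperone genes rose, against 23.1% of all genes, and 14 fell, against 27.8%. The median mean ratio was −0.01 for the chaperone genes and −0.05 for all genes. All 8 CCT genes fell, between −0.56 for CCT4 and −1.21 for CCT5 and CCT7. All 4 ribosome-bound genes fell, with SSB1 at −1.59 (SE 0.278, adjusted p = 0.00132), SSB2 at −1.46, SSZ1 at −1.24 and ZUO1 at −1.18. The remaining genes that fell were MGE1 at −0.87 and HCH1 at −0.80. The genes that rose included 4 of the 5 stress-specific genes and 3 cytosolic Hsp70 genes. HSP30 had the highest mean, 4.12 (SE 0.811, adjusted p = 0.00249), followed by SSA4 at 2.98, HSP42 at 2.74, HSP26 at 2.67, SSE2 at 2.34, SSA3 at 1.83, HSP104 at 1.78, HSP78 at 1.72 and SBA1 at 0.43. A call on the mean does not require a shared sign, and HSP26 was above 0 on 5 of the 7 arrays and HSP104 on 6. The heat array carried much of some means, and without it that of HSP104 was 1.10 and that of HSP78 1.05. SSE2 had the lowest adjusted p of these by limma, 0.000709, and an SE of 0.361. Without the KCl array 5 genes rose, and the calls of HSP104, HSP26, HSP78 and SBA1 were lost. Without the heat array SSA2, YDJ1, SSE1 and HSC82 also fell and 18 genes fell in all, and without the rapamycin array BTN2 also rose.

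**Figure D4:**
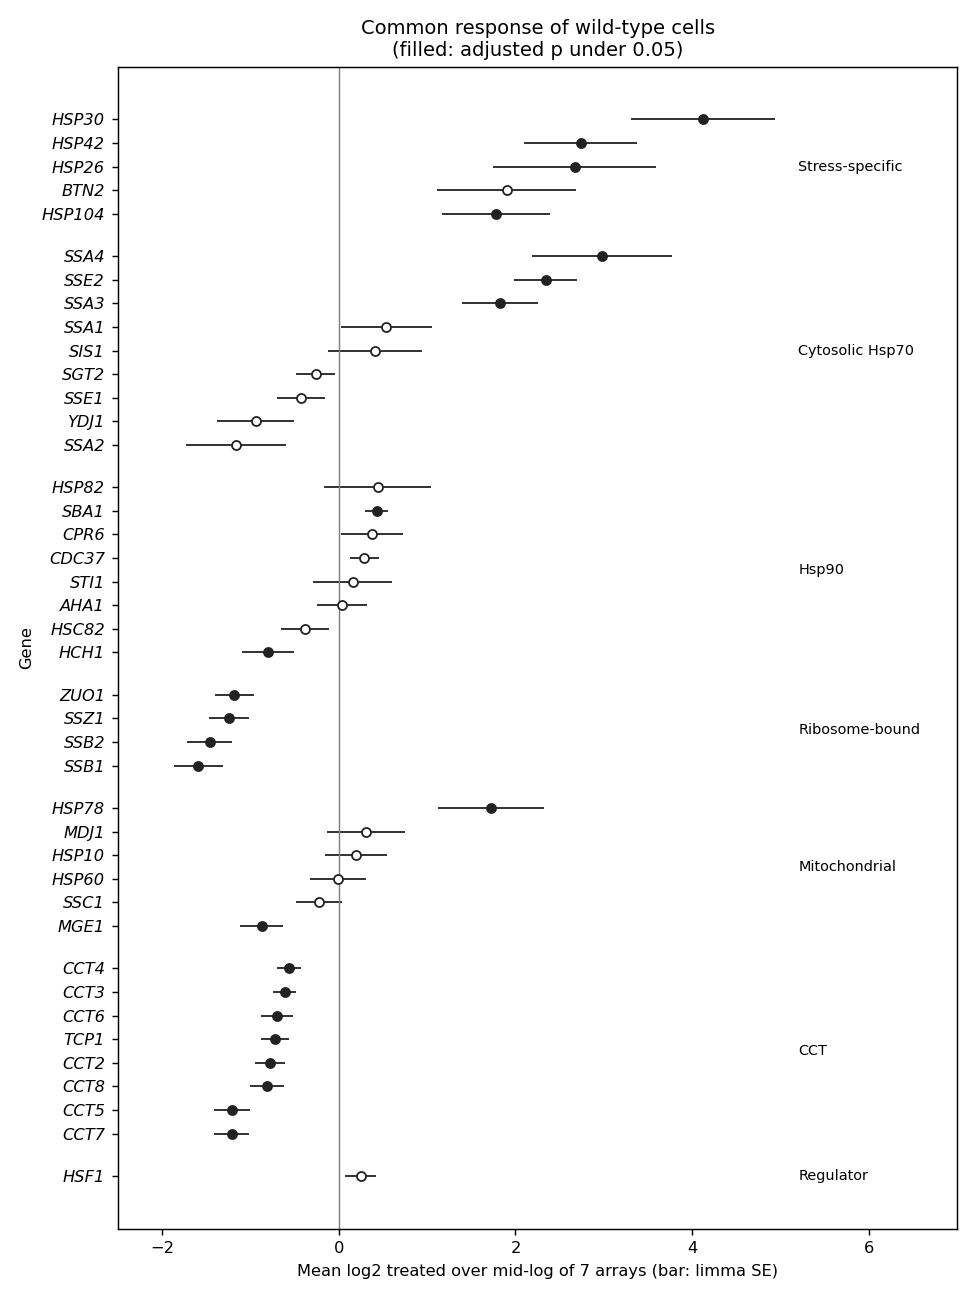
Points give the mean log2 ratio over the 7 wild-type arrays of single treatments for each chaperone gene, with bars of 1 standard error from limma, filled where the adjusted p passed 0.05. The means run from −1.59 for SSB1 to 4.12 for HSP30, and all 8 CCT and all 4 ribosome-bound genes are among the 14 that fell.

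For comparison, 23 of 23 tested general stress genes rose in the same limma fit, with a median of 2.53. Like the chaperone genes, that list was chosen with earlier results of these data known. The count is therefore a description and not an independent benchmark. Of the 130 cytosolic ribosomal protein genes 121 fell and 1 rose, with a median of −1.43. Among 24 tested other folding genes, which include prefoldin, nascent polypeptide-associated complex, J-protein, Hsp90 co-chaperone and mitochondrial import and folding genes, 3 rose and 9 fell, with a median of −0.25. Those that rose were the J-protein genes CAJ1 and XDJ1 and the mitochondrial Hsp70 gene ECM10. Those that fell included the prefoldin genes GIM3, GIM5 and PAC10, and the nascent polypeptide-associated complex genes EGD1 and EGD2. The prefoldin gene GIM4, at −0.02, and BTT1 of the nascent polypeptide-associated complex, at 0.07, did not pass. PPT1, the phosphatase of Hsp90, had the lowest of these means at −2.06, and the cyclophilin gene CPR7 was at −1.06.

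Heat was then set against the mean of the other 6 treatments. Heat had 1 array, assumed to vary like the others, so the SE and p hold no spread between heat arrays and rest on the spread among unlike treatments. By limma 6 of the 41 chaperone genes were higher with heat, against 1.25% of all genes, and none was lower, against 0.185%. SSA3 was higher by 3.52 (SE 0.475, adjusted p = 0.021), HSP78 by 4.70, SSA4 by 6.15, YDJ1 by 3.41, AHA1 by 2.19 and HSP104 by 4.74. HSP30 had the same difference as SSA4, 6.15, but its adjusted p by limma was 0.0639. BTN2 at 5.88, HSP26 at 5.77, HSP42 at 4.62 and HSP82 at 4.37 did not pass either. At an unadjusted p under 0.05, 25 chaperone genes were higher, against 8.72% of all genes, and CCT8 and ZUO1 were lower, against 7.24%. The 6 calls depend on single arrays. They became 0 without the nitrogen array or the amino acid array, 1 without rapamycin or without 0.1% glucose, 3 without KCl and 9 without peroxide, where BTN2, HSP30, HSP42 and SIS1 passed and AHA1 did not. Of the other folding genes, HLJ1, a J-protein of the endoplasmic reticulum membrane, was higher by 1.74.

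The design also sets 3 starvations (nitrogen, amino acids, 0.1% glucose) against 3 stresses (KCl, heat, peroxide). By limma 0 of 4966 genes passed in either direction at the adjusted threshold. At an unadjusted p under 0.05, 20 of the 41 chaperone genes were lower in starvation, against 6% of all genes, and 0 were higher, against 3.87%. The median difference was −1.19 for the chaperone genes and −0.03 for all genes. HSP26 had a difference of −5.49 (SE 0.995, limma adjusted p = 0.32), and without the 0.1% glucose array it passed at −6.29. Ratios of HSP82, STI1, CPR6, SIS1 and MDJ1 were below 0 on all 3 starvation arrays and above 0 on all 3 stress arrays. Those are 5 of 41 genes, against 1.07% of all genes, and 0 showed the reverse, against 0.665%.

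In the combined treatments some genes lay beyond their ratio on either single array. Under nitrogen starvation with KCl 19 of 42 chaperone genes were at least 2-fold lower, against 23% of all genes, and 8 were higher, against 18.4%. The ribosome-bound median was −4.03 and the ribosomal protein median −3.96. SSB1 was −5.58, SSB2 −4.86 and SSZ1 −3.20, and ZUO1 was −1.84. SSA2 was at −4.38 and YDJ1 at −3.35. These 5 genes, SSA2, SSB1, SSB2, SSZ1 and YDJ1, were at least 2-fold lower than on each of the single arrays, against 3.8% of all genes. No chaperone gene was at least 2-fold higher than on each, against 0.518%. Of the stress-specific genes, HSP26 was at 1.81 and HSP30 at 1.82, both below their value with KCl alone.

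Under nitrogen with glucose starvation 8 of 42 chaperone genes were at least 2-fold higher, against 16.3% of all genes, and 8 were lower, against 18.1%. HSP30 was 6.39, against 2.46 without nitrogen and 3.64 in 0.1% glucose. SSA2 was −0.54 and SSB2 −0.37, where both had been at least 2-fold lower on each single array. HSP30, SSA2 and SSB2 were at least 2-fold higher than on each single array, 3 of 41 or 7.32%, against 4.53% of all genes. None was at least 2-fold lower than on each, against 2.81%. The single glucose array was of 0.1% glucose, and the glucose concentration of both combinations was not given. Glucose dose and combination therefore cannot be told apart here. With glucose starvation and rapamycin together 8 of 42 were at least 2-fold higher than mid-log, against 13.2%, and 6 were lower, against 15.3%. HSP30 was at 6.72 there and BTN2 at 3.12. These were the genes at least 2-fold above each single array, 2 of 41 or 4.88%, against 3.48% of all genes. None was below, against 1.3%. The arrays of the pair of combinations that remove glucose differed by less than 2-fold for all 42 chaperone genes, where 4.11% of all genes were higher and 1.5% lower with nitrogen starvation. SSB1 was −0.18 on the first and 0.10 on the second, and HSP26 was 2.61 and 2.37.

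The snf1 deletion was compared with the wild type on matched treatments. In mid-log growth 1 of 41 chaperone genes, HSP30 at 1.69, was at least 2-fold higher in snf1 cells, against 2.14% of all genes, and 0 were lower, against 1.62%. SSA1 was the lowest at −0.84. Each treated ratio of snf1 cells is against snf1 cells in mid-log growth, so the mid-log difference of HSP30 enters its snf1 ratios. The strain comparisons below are of these ratios and not of levels.

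Without nitrogen 1 of 42 chaperone genes was at least 2-fold higher than mid-log in snf1 cells, against 14.4% of all genes, and 19 were lower, against 18.9%. HSP26 was −3.01 in snf1 and −0.70 in wild-type cells, and HSP30 was −0.75 in snf1 and 2.46 in wild-type cells. HSP30 thus lay below mid-log in snf1 cells without nitrogen, while it lay above on every wild-type array. SSB1 and SSB2 were both −3.83 in snf1 cells, and SSA3, SSA4 and BTN2 were −0.52, −0.14 and 1.16. The ratios of these 7 genes were at least 2-fold lower than in the wild type, against 3.67% of all genes, and 0 were higher, against 0.717%.

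With KCl 7 of 42 chaperone genes were at least 2-fold higher than mid-log in snf1 cells, against 12.3% of all genes, and 3 were lower, against 13.4%. HSP26, HSP30, SSA1, SSA3 and SSA4 had ratios at least 2-fold lower than in the wild type, against 2.87% of all genes. None had a ratio at least 2-fold higher, against 1.36%. HSP26 was 2.37 in snf1 and 4.57 in wild-type cells. SSA4 was 2.28 and 3.78, so both genes stayed above mid-log in both strains.

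In 0.1% glucose the HSP30 ratio to mid-log was higher in snf1 than in wild-type cells. Without nitrogen and with KCl this ratio was lower in snf1 cells. With KCl the difference was −1.26, smaller in size than the mid-log difference of 1.69, so a lower HSP30 level in snf1 cells was not shown. In 0.1% glucose 5 of 42 chaperone genes were at least 2-fold higher than mid-log in snf1 cells, against 17.2% of all genes, and 5 were lower, against 13.3%. HSP30 was 7.83 in snf1 and 3.64 in wild-type cells. SSB1 was 0.08 in snf1 and −1.04 in wild-type cells, ZUO1 −0.11 and −1.73, and SSA2 −0.38 and −3.06. With KCl the ratios of these 3 genes were also higher in snf1 cells, by 0.30, 0.56 and 0.28. Without nitrogen the differences did not share a sign, at −1.24 for SSB1, 0.20 for ZUO1 and −0.31 for SSA2. The ribosome-bound median was −0.09 in snf1 and −1.52 in wild-type cells, and the ribosomal protein median was −0.41 and −1.31. With CCT5, CNS1, SSB2 and SSZ1, 8 of 42 chaperone genes had ratios at least 2-fold higher in snf1 than in wild-type cells. That is 19%, against 14.3% of all genes. BTN2 was lower, at −1.06 against 0.86, where 6.27% of all genes were.

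In 0.02% glucose 7 of 42 chaperone genes were at least 2-fold higher than mid-log in snf1 cells, against 7.54% of all genes, and 0 were lower, against 7.52%. BTN2 was 3.16 there, and HSP30 6.71. Set against 0.1% glucose in the same strain, BTN2, HSP82, MDJ1, STI1 and YDJ1 were at least 2-fold higher, against 3.26% of all genes. HSP26 and HSP30 were lower, by 1.08 and 1.12 log2 units, against 9.59%. BTN2 was higher by 4.22 and STI1 by 1.24. The differences of HSP82, YDJ1 and MDJ1 were 1.03, 1.01 and 1.00, so these genes lay at the threshold. No wild-type array of 0.02% glucose was analysed here.

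**Figure D5:**
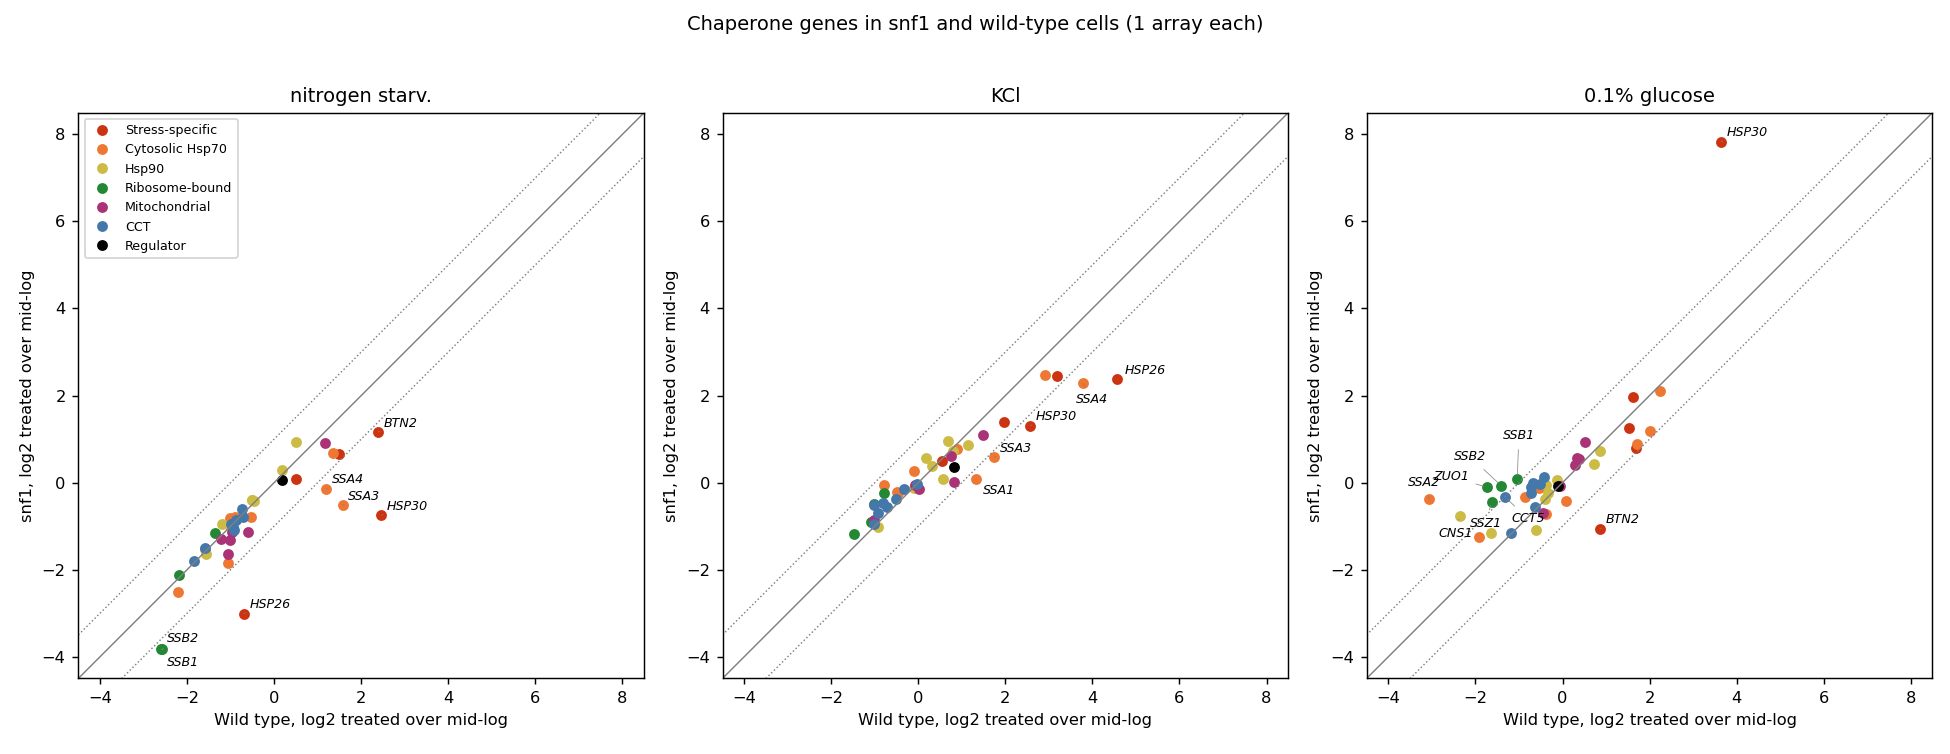
The log2 ratio of each chaperone gene in snf1 cells (vertical axis) is plotted against that in wild-type cells (horizontal axis) for nitrogen starvation, KCl and 0.1% glucose, 1 array per strain and treatment. The solid line marks equal ratios and the dotted lines a 2-fold difference. HSP26 and HSP30 lie below the lower line without nitrogen and with KCl, and HSP30, at 7.83 against 3.64, lies above the upper line in 0.1% glucose.

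Over the 3 matched treatments, limma with treatment as a block found a difference between strains for 0 of the 41 chaperone genes, against 0.0185% of all genes called lower and 0% called higher. At an unadjusted p under 0.05, 7 chaperone genes were lower in snf1 cells, against 7.22% of all genes. They were BTN2, HSP26, HSP42, MDJ1, SSA1, SSA3 and SSA4, and SSA4 had a difference of −1.22 (SE 0.217, limma adjusted p = 0.206). ZUO1 was higher by 0.79, where 6.44% of all genes were. No chaperone gene lay below 0 on all 3 snf1 arrays and above 0 on all 3 wild-type arrays, against 0.185% of all genes, and none lay the other way, against 0.278%.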

How the data were processed

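The authors deposited 1 column of log2 ratios per 2-colour array, Cy5 over Cy3 rounded to 2 decimals. The log base was not given in the sources used here. Log2 was taken because the extremes, −7.18 and 9.47, are too wide for log10, and another base would rescale every value. How spots were background-corrected, normalised and filtered was not given in the sources used here. Per the labels, the peroxide array had treated cells in Cy3, so its sign was reversed. After that it correlated with the other 6 single-treatment arrays at 0.501 to 0.651 across genes. Exact zeros on the 6 arrays with over 500 of them were taken as no value. Of 6256 gene probes, 4075 had 1 symbol, 0 had several and 2181 had none. The current gene table updated 129 symbols, and probes of 7 genes were averaged, leaving 6249 genes or probes. The 61 control spots were left out, and 0 columns were unused.

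Tests used limma 3.58.1 (lmFit, eBayes) in R 4.3.3 over genes measured on every array of the fit, with Benjamini-Hochberg adjustment over all of them and a threshold of 0.05. The limma script was tested on simulated data. Ratios on single arrays were counted at 2-fold. Tables were handled in Python 3.11.15 with pandas 2.3.3, and figures drawn with matplotlib 3.10.9. Alternatives covered the zeros, genes with a value on all 15 arrays, array centring, robust eBayes, the treatment block, the fold threshold and each array left out. Values on every single-treatment array are printed for the 2 highest and the 1 lowest gene at 42 °C in each role group, for HSF1 and for several related pairs. The members, role groups and comparison lists were chosen with earlier results of these data known. The ribosomal protein list was made from symbols once the tables were in hand. Promoter and protein sequences were not analysed here.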

Additional observations from a re-analysis of the deposited data

Results flagged for a closer look

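For 5 genes the 3 starvation arrays and the 3 stress arrays lay on opposite sides of mid-log, with every starvation ratio below 0 and every stress ratio above 0. The mean over the stresses exceeded the mean over the starvations by 3.16 for HSP82, 2.63 for SIS1, 2.45 for STI1, 2.44 for MDJ1 and 1.83 for CPR6, in log2 units. These genes encode an inducible Hsp90, a cytosolic J-protein, the bridge between Hsp70 and Hsp90, a mitochondrial J-protein and an Hsp90 cyclophilin. The separation of signs is not itself a test. The limma comparison of starvation with stress, which covers the same arrays, passed none of the 5 genes, and HSP82 had an adjusted p of 0.401 there. With rapamycin, which is in neither class, all 5 genes were below mid-log, from −0.97 for HSP82 to −0.15 for CPR6.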

How the results depend on the processing

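No chaperone gene called by limma changed sign under the alternatives run. Of the genes not called in the common response, HSP82 went from 0.44 to −0.18 without the heat array, SIS1 from 0.41 to −0.17, MDJ1 from 0.31 to −0.12, HSP10 from 0.20 to −0.12, STI1 from 0.16 to −0.29 and AHA1 from 0.04 to −0.27. Leaving out each array in turn, the number of chaperone genes that rose in the common response was 5 to 9 and the number that fell 13 to 18. The same range was 0 to 9 for genes higher with heat than with the other 6 treatments, and 0 to 1 for genes lower in starvation than in stress. For the strain comparison it was 0 in both directions. In the common response the calls of HCH1 were lost in 7 settings, of HSP26 in 6, of HSP104 in 4, of HSP78 in 3 and of SBA1 in 2, with limma adjusted p between 0.0509 and 0.174. No setting lost a call of a CCT or ribosome-bound gene, HSP30, HSP42, SSA3, SSA4, SSE2 or MGE1. Leaving out the heat and peroxide arrays together, an alternative chosen after seeing the data, gave 7 genes that rose and 18 that fell. Each of the 6 heat calls was lost in at least 2 settings; keeping the zeros or using robust eBayes left 4, and centring gave 7. At a 4-fold threshold on the heat array 17 genes were higher and 3 lower, in place of 23 and 10. The smaller count follows from the stricter threshold. The labels give no replicate numbers to pair; the strain comparison was paired by treatment, and dropping that block left 0 chaperone genes called. The signal over background of a spot is not in the values used here, so dim and bright probes cannot be told apart.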
